A study of Mus musculus and Homo sapiens with 20 samples.

Results

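The genes described here encode fibroblast growth factors (FGFs), bone morphogenetic proteins (BMPs) and growth differentiation factors (GDFs). They were taken by a rule on names, as every autosomal protein-coding gene called Fgf, Bmp or Gdf followed by a number. The choice was made with earlier results of these data known. That rule gave 40 of 20780 autosomal protein-coding genes in mouse and 40 of 19103 in human, with 14 secreted paracrine FGFs, 3 endocrine FGFs, 3 intracellular FGFs, 9 BMPs, 10 GDFs and the protease Bmp1 in each species. Bmp15, Fgf13 and Fgf16 lie on X and were left out in both. The readout was where CUT&Tag peaks were called for H2AK119ub and H3K27me3, the histone marks laid down by Polycomb repressive complexes 1 and 2. The mouse libraries covered both marks in embryonic stem (mES) cells and in bone marrow cells depleted of lineage markers and selected for c-Kit, called HSPCs here after the haematopoietic stem and progenitor cells they contain. Each cell type came with intact Tet2 (WT) or with Tet2 knocked out (KO). The human libraries covered H2AK119ub alone, in the leukaemia line K562 treated with siRNA to MBD6 (siMBD6) or with a control siRNA (siControl). There were 20 libraries in 10 groups of 2. The comparisons address whether loss of the dioxygenase TET2, or depletion of MBD6, a methyl-CpG-binding-domain family protein, altered the marks at these genes.

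Several features of the samples limit them as models. The mES lines of both genotypes were grown in serum with LIF, the GSK3 inhibitor CHIR99021 and the MEK inhibitor PD0325901, so a MEK inhibitor was present in WT and KO alike. The labels do not say how many lines or clones stand behind each genotype. The HSPCs came from mice 6 to 8 weeks of age, and the labels' protocol includes a suspension culture with added cytokines. The K562 medium contained puromycin in both arms, per the labels. The labels do not say whether the 2 libraries of a group came from separate cultures or animals, so the spread between them may be technical.

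FGFs mostly act by binding receptor tyrosine kinases that signal through MEK and ERK, whereas BMPs and GDFs belong to the TGFβ superfamily and act through serine/threonine kinase receptors and SMAD proteins. Many of these ligands pattern the embryo and are switched on in narrow windows of place and time. Polycomb complexes are known for holding such developmental genes silent but inducible, often over CpG-rich starts. In mES cells FGF4 is the main autocrine FGF, and BMP signals counter its effect on differentiation.

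The value used throughout is the percent of a start window, 1 kb on each side of the outermost annotated gene start, that lay under a called peak. The lists held 85121 to 167378 peaks and positions only, so read depth is unknown, as is the height of any peak. Between 30.4% and 41.4% of peaks in a library had one and the same width, and 1 such peak covers 25.04% of a window, so values near 25% usually mark a single minimal peak. Pluripotency genes served as a check of the labels. Of the 8 pluripotency markers, Pou5f1, Nanog, Sox2, Klf4 and Tdgf1 had H3K27me3 coverage of 0% to 12.2% in the 4 mES libraries and 100% in the 4 HSPC libraries. The other 3 did not separate the cell types, since Esrrb was at 85.1% or more in all 8 and Zfp42 and Dppa5a were at 0% in all HSPC libraries. H2AK119ub behaved less like an on/off mark, since Pou5f1 was covered over 72.8% to 87.6% in mES cells. Of the 9 HSPC markers, Spi1 was at 100% in WT mES cells and at 3.90% and 27.3% in WT HSPCs, Ptprc had no H3K27me3 in either, and Gata2 and Tal1 were fully covered in both. The Tet2 start window was uncovered in all 8 mES libraries, and in HSPCs its H2AK119ub was at 0% and 32.6% in WT, against 61.0% and 68.1% in KO. MBD6 had 0% in both siControl libraries against 25.04% and 40.8% in the siMBD6 libraries, and these values describe the mark and do not test the deletion or the knockdown. Among HSPC libraries, WT H2AK119ub replicate 2 stood apart, with a peak at 27 members against 34 in each of the other 3.

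Sequences around RefSeq starts are shown for 7 members, 250 bases before to 50 after the start on GRCm38.p6, 5′ to 3′ on the plus strand, with each CpG in capitals. Of the 40 mouse members, 27 had such an entry. Fgf10 and Fgf7 had the least H3K27me3 at the outermost start in WT cells, Bmp6 and Bmp8b had full coverage, and Fgf5 and Gdf10 had the largest difference between Tet2 genotypes. Fgf4 was added after its values were seen. The windows are chr13:118714449-118714748 (Fgf10), chr2:126034408-126034707 (Fgf7), chr13:38345466-38345765 (Bmp6), chr4:123104911-123105210 (Bmp8b), chr5:98253934-98254233 (Fgf5), chr14:33923337-33923636 (Gdf10) and chr7:144861136-144861435 (Fgf4).
Fgf10: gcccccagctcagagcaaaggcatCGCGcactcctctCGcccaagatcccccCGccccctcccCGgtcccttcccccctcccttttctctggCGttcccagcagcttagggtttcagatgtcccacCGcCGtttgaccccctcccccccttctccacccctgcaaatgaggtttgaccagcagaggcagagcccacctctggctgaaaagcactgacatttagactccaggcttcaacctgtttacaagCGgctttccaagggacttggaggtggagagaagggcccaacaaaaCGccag
Fgf7: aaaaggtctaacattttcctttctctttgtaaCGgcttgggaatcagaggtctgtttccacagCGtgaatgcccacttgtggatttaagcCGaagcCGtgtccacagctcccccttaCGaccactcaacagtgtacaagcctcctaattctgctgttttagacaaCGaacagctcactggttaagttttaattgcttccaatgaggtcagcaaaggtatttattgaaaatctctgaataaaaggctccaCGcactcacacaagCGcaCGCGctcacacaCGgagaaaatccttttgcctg
Bmp6: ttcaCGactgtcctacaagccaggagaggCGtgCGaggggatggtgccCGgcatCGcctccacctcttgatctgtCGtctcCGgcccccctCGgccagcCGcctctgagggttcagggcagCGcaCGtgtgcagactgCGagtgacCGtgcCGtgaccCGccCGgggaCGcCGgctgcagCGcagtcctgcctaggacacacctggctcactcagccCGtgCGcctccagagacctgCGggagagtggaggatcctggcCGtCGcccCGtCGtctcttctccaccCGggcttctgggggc
Bmp8b: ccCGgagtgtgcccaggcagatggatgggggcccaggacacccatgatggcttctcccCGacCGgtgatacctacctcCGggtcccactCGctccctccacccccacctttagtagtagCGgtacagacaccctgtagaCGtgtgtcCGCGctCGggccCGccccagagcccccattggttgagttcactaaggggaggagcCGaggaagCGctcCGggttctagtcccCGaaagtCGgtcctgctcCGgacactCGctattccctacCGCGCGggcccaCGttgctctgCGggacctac
Fgf5: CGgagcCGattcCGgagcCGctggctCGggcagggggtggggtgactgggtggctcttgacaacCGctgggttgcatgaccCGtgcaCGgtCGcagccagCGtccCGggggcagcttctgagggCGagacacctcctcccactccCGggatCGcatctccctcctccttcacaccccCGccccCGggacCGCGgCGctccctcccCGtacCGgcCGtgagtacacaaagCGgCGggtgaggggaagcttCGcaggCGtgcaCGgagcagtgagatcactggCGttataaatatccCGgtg
Gdf10: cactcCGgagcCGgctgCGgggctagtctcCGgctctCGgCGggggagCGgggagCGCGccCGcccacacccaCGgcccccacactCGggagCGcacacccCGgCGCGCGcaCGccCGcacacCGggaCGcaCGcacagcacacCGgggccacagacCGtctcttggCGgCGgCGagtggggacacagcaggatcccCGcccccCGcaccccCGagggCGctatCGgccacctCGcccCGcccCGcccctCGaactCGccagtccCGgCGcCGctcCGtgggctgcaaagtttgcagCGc
Fgf4: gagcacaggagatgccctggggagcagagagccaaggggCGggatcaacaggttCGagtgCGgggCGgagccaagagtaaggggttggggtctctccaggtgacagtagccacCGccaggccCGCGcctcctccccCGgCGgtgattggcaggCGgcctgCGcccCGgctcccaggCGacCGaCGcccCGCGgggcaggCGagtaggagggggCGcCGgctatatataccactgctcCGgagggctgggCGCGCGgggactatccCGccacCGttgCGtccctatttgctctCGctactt
The sequences differ most in CpG number. Fgf10 and Fgf7 hold 10 and 11 CpGs, Bmp8b 23, Bmp6 27, Fgf4 28, Fgf5 29 and Gdf10 42, against a median of 12 over the members with an entry and 7 over 32851 RefSeq windows of the same length. Only 3.03% of all windows hold as many CpGs as Gdf10, and 41.4% hold as many as Fgf7. The Fgf7 window was free of both marks in all 16 mouse libraries, and the Bmp6 window was fully covered in all 16. The Fgf10 window lies 44908 bp downstream of the outermost GENCODE start. It was fully covered by H3K27me3 in all 4 HSPC libraries and had no H2AK119ub in any of them, although the outermost start read 0% in every library.

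Polycomb marks covered most of these ligand genes in both mouse cell types. Averaged over the 40 members, H2AK119ub covered 74.5% ± 0.247 (SD, n = 2) of the start windows in WT mES cells and 58.6% ± 8.62 (SD, n = 2) in WT HSPCs. The averages over all autosomal genes were 44.01% and 44.4%. For H3K27me3 the member averages were 75.5% ± 3.96 (SD, n = 2) in WT mES cells and 77.1% ± 1.30 (SD, n = 2) in WT HSPCs, against 33.3% and 38.6% over all genes. In K562 cells the level was much lower, 23.5% ± 4.39 (SD, n = 2) in siControl against 16.1% over all genes. The member average lay above the all-gene average in each of the 20 libraries.

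**Figure D1:**
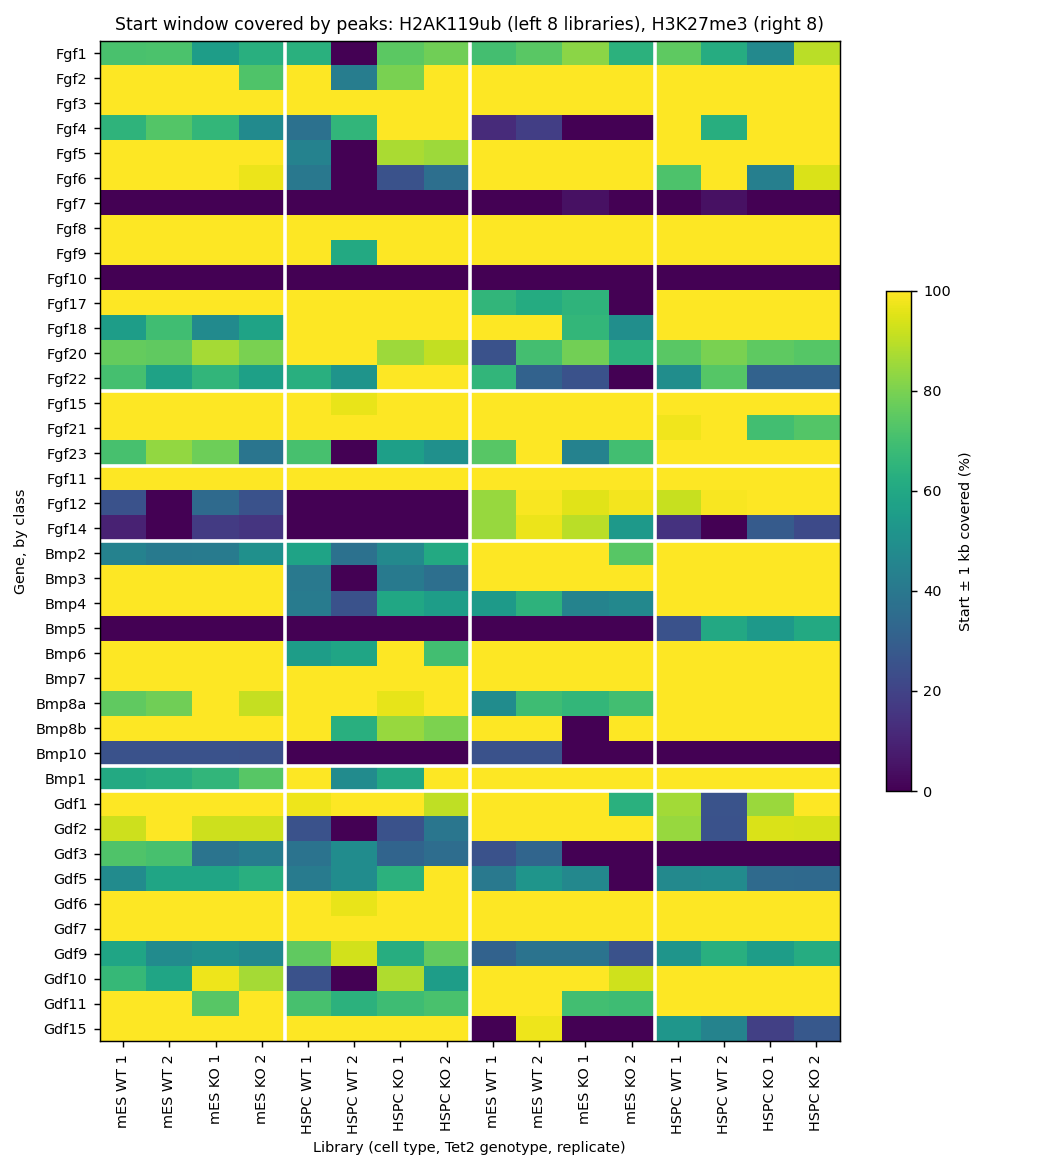
Percent of the start window (1 kb each side) under peaks for each of the 40 mouse genes (rows, grouped by class) in each of the 16 libraries (columns: H2AK119ub in the first 8, H3K27me3 in the last 8), on a colour scale from 0 to 100%. Bmp7, Fgf3, Fgf8, Fgf11 and Gdf7 are at 100% in every column, Fgf10 is at 0% in every column, and Fgf4 changes from at most 18.6% to at least 62.9% between the mES and HSPC columns of H3K27me3.

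A core of 5 members was fully covered in all 16 mouse libraries, namely Bmp7, needed for kidney and eye development, Fgf3, an inner-ear inducer, Fgf8, an organiser of gastrulation, limb and midbrain, Fgf11, and Gdf7, a dorsal spinal cord signal. That is 5 of 40 members, and 1.62% of all genes met the same condition. H3K27me3 was complete in all 4 libraries at 16 members in mES cells, against 12.1% of all genes, and 22 in HSPCs, against 14.5%. For H2AK119ub the numbers were 17 in mES cells, against 10.6%, and 9 in HSPCs, against 7.28%. At the other end, Fgf7, a mesenchymal growth factor for epithelia, never exceeded 4.65%. Bmp5, a skeletal BMP, was at 0% in 12 of the 16 libraries and had H3K27me3 in HSPCs alone.

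The classes differed in how the marks were distributed. The 3 endocrine FGFs, which circulate as hormones, had H3K27me3 coverage in WT cells of 95.7% ± 6.13 (SD, n = 2) in mES cells and 99.7% ± 0.495 (SD, n = 2) in HSPCs. Among them, Fgf15, the intestinal hormone that restrains bile acid synthesis, was at 100% in all 8 H3K27me3 libraries and at 96.8% or more in all 8 H2AK119ub libraries. The 3 intracellular FGFs, which bind voltage-gated sodium channels instead of receptors, had H2AK119ub coverage of 39.1% ± 8.20 (SD, n = 2) in WT mES cells and 33.3% in both WT HSPC libraries. Fgf11 was at 100% throughout. Fgf12 had no H2AK119ub in any HSPC library and 0% to 34.7% in mES cells, but its H3K27me3 coverage was 84.8% to 100% in all 8 libraries. These low values belong to the outermost start. At the most covered protein-coding start, chosen library by library, Fgf12 had H2AK119ub of 56.2% to 70.2% in mES cells and in HSPCs 56.3% and 0% (WT) or 71.0% and 100% (KO). Fgf14 was at 94.3% to 100% there in mES cells and stayed at 0% in HSPCs.

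Most members carried both marks in the same cells. A peak of each mark touched the start window in both WT libraries at 34 of 40 members (85%) in mES cells, where 42.7% of all genes met that condition. In WT HSPCs the number was 26 (65%), against 47.9% of all genes. In WT HSPCs 9 members (22.5%) had H3K27me3 in both libraries but not H2AK119ub in both, against 8.10% of all genes. They were Bmp3, Bmp5, Fgf1, Fgf5, Fgf6, Fgf12, Fgf23, Gdf2 and Gdf10. Of these, Bmp5 and Fgf12 had no H2AK119ub in either library, whereas the others had 25.04% to 70.7% in replicate 1 and 0% in replicate 2, the library that stood apart. The reverse state was seen at Gdf15 alone in WT mES cells, where H3K27me3 was at 0% and 97.6%. In WT HSPCs it was seen at Gdf3 alone, where H3K27me3 was at 0% in both. Over all genes the shares in the reverse state were 22.8% and 15.2%. When at least 50% of the window had to be covered, 17 members had both marks in WT HSPCs, against 18.6% of all genes, and 25 in WT mES cells, against 23.6%. In KO cells, by any overlap, both marks were found at 29 members in mES cells (33.6% of all genes) and 33 in HSPCs (51.9%).

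CpG content of the 2001-base start window varied widely among the members. The observed over expected CpG ratio ran from 0.104 at Fgf4 to 0.893 at Bmp2, with a median of 0.521 against 0.486 over all genes. The Fgf4 value belongs to the outermost start, and its 300-base RefSeq window printed above had a ratio of 0.774. At Fgf10 the ratios were 0.263 and 0.394 in the same order. Members with a ratio above 0.6 numbered 15. Their H3K27me3 coverage averaged 89.4% in WT mES cells and 95.7% in WT HSPCs. The 16 members with a ratio below 0.4 averaged 54.4% and 59.3%, and the 9 in between 89.7% and 78.1%. Across the 40 members Spearman's rho between CpG ratio and WT H3K27me3 coverage was 0.46 in mES cells and 0.55 in HSPCs. Across 20780 genes it was 0.20 and 0.48. With H2AK119ub coverage, rho across the members was 0.15 in WT mES cells, 0.36 in WT HSPCs and 0.13 in K562 siControl cells. Over all genes it was 0.34, 0.55 and -0.09 in the same order. These are descriptions across genes, which share libraries and are not independent replicates. Exceptions included Fgf21, a fasting hormone of the liver, which had a CpG ratio of 0.161 and H3K27me3 coverage of 100% in all mES libraries. Gdf9, an oocyte factor whose outermost window also holds the start of Uqcrq, had a ratio of 0.663 and only 25.04% to 63.1%.

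The next comparison set the 4 HSPC libraries of a mark against the 4 mES libraries. Fgf4 showed the largest H3K27me3 difference among members. Its start window was covered over 12.5% and 18.6% in WT, against 0% and 0% in KO mES cells. In HSPCs it was covered over 100% and 62.9% in WT and over 100% in both KO libraries. Every HSPC value therefore lay above every mES value, with means of 90.7% ± 18.6 (SD, n = 4) and 7.78% ± 9.33 (SD, n = 4) and a difference of 82.9 points (p = 0.0286 by a two-sided exact permutation test, and 0.0682 after Benjamini-Hochberg adjustment). The outermost GENCODE start of Fgf4 lies 14019 bp upstream of the RefSeq start whose sequence is printed above. At that RefSeq window the contrast was complete, with H3K27me3 at 0% in all 4 mES and 100% in all 4 HSPC libraries, and H2AK119ub at 100% in all 8.

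**Figure D2:**
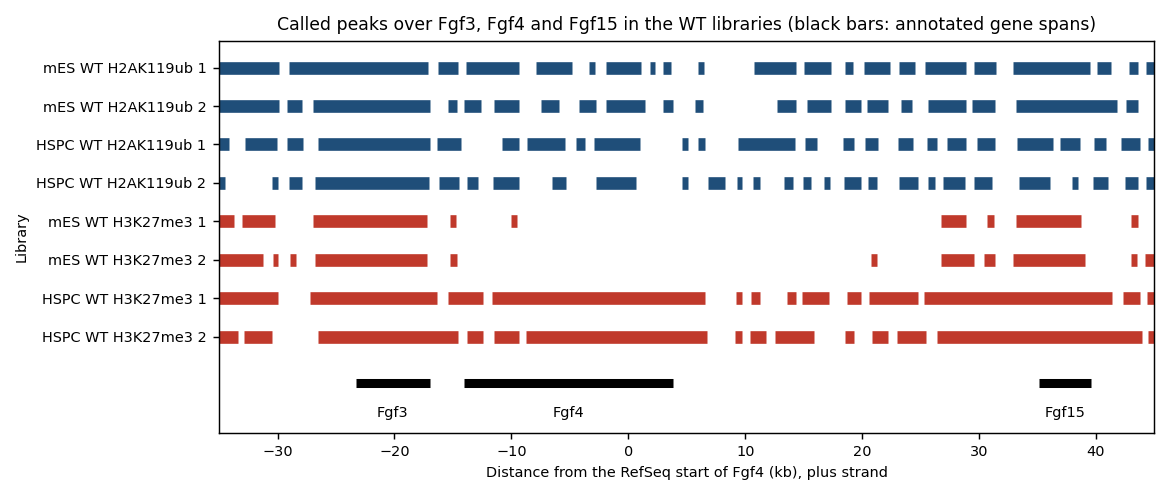
Called peaks (bars) over Fgf3, Fgf4 and Fgf15 in the 8 WT libraries, from 35 kb before to 45 kb after the RefSeq start of Fgf4 on the horizontal axis (kb), with H2AK119ub in blue, H3K27me3 in red and gene spans in black. H3K27me3 covered 29.8% and 33.3% of this stretch in the WT mES libraries and 81.02% and 78.7% in the WT HSPC libraries, and the mES H3K27me3 rows are empty over the Fgf4 start while Fgf3 and Fgf15 are covered.

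Fgf3 and Fgf15 lie within 100 kb of Fgf4 on chromosome 7. Their start windows were at 100% for H3K27me3 in all 8 libraries, where no difference could be seen, but the domain around Fgf3 differed in length. In HSPCs a single H3K27me3 domain of 33.2 to 33.8 kb, made of peaks joined across gaps of up to 1 kb, held the starts of both Fgf3 and Fgf4. In mES cells the domain at Fgf3 was 6.17 to 9.73 kb and no domain held the Fgf4 start. The whole Fgf4 span was covered over 0% to 2.80% in mES cells, against 87.2% to 95.5% in HSPCs. H2AK119ub did not separate the cell types at Fgf4, with 48.0% to 73.4% in mES cells, against 37.4% to 100% in HSPCs.

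The other members with more H3K27me3 in HSPCs were Bmp4, Bmp5, Bmp8a, Fgf17 and Gdf9. Bmp4, the mesoderm inducer, was covered over 54.4% and 64.6% in WT, against 44.9% and 46.8% in KO mES cells, and over 100% in all 4 HSPC libraries. Bmp5 was at 0% in all 4 mES libraries, and its HSPC values were 25.04% and 60.5% in WT, against 54.1% and 60.6% in KO. Fgf17, a relative of Fgf8, was covered over 65.8% and 61.6% in WT, against 65.0% and 0% in KO mES cells, and was complete in all HSPC libraries. Bmp8a, a germ cell BMP, ran from 48.5% to 69.7% in mES cells and was at 100% in HSPCs. Gdf9 had 25.04% to 38.1% in mES cells, against 52.2% to 63.1% in HSPCs. None of these 5 genes had overlapping cell types. The outermost Gdf9 start belongs to a non-coding transcript, however, and at the start of its protein-coding transcript H3K27me3 was at 0% in all 8 libraries, so the Gdf9 difference was not found there.

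The 2 members lower in HSPCs were Fgf14 and Gdf2. Fgf14 was covered over 84.4% and 97.1% in WT, against 89.7% and 53.5% in KO mES cells. Its HSPC values were 14.7% and 0% in WT, against 28.8% and 22.6% in KO, so the cell types did not overlap. These values belong to the outermost start. At the most covered protein-coding start Fgf14 was at 100% in mES cells. Its HSPC values there were 25.04% in both WT libraries, against 75.6% and 96.3% in KO. At its RefSeq window, 484581 bp from the outermost start, H3K27me3 was at 100% in mES cells. In HSPCs that window read 100% and 61.7% in WT and 100% in both KO libraries. Gdf2, an endothelial BMP-family ligand, was at 100% in all mES libraries and at 84.5% and 25.04% in WT, against 94.4% and 93.8% in KO HSPCs. In mES cells Gdf2 shared an H3K27me3 domain of 37.0 to 41.5 kb with Gdf10, its neighbour on chromosome 14, so these 2 members are not independent. The remaining named members had overlapping cell types. Fgf6, Gdf1, Fgf21 and Gdf3 differed by 14.4 to 22.6 points towards mES cells, and Fgf23 by 28.0 points towards HSPCs.

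In total, 8 of 40 members reached the smallest p for H3K27me3, 6 higher in HSPCs, against 23.6% of all genes, and 2 lower, against 9.08%. All 8 differed by at least 20 points, as did 22.7% and 8.67% of all genes. No member and no gene passed the threshold of 0.05 after adjustment over 16205 genes, and the smallest adjusted p was 0.0682. With 70 assignments the exact permutation test cannot go below p = 0.0286. An adjusted p of 0.05 is then possible only when a large part of all genes reaches that floor. The lack of passing genes therefore does not show a lack of difference. With limma, a moderated test across all genes, 7 members passed an adjusted p of 0.05 (Bmp4, Bmp5, Bmp8a, Fgf4, Fgf17 and Gdf9 higher in HSPCs and Fgf14 lower), against 33.5% of all genes higher and 12.5% lower. The limma adjusted p was 0.00186 for Fgf4 and 0.000238 for Bmp4, whereas Gdf2 had 0.232. The share of members was below that of all genes in both directions, but full coverage limits this comparison. The 16 members fully covered in all 4 mES libraries, against 12.1% of all genes, could not be called higher in HSPCs. The 22 fully covered in all 4 HSPC libraries, against 14.5%, could not be called lower. The lower shares therefore do not show that members differed less often where a difference was possible.

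**Figure D3:**
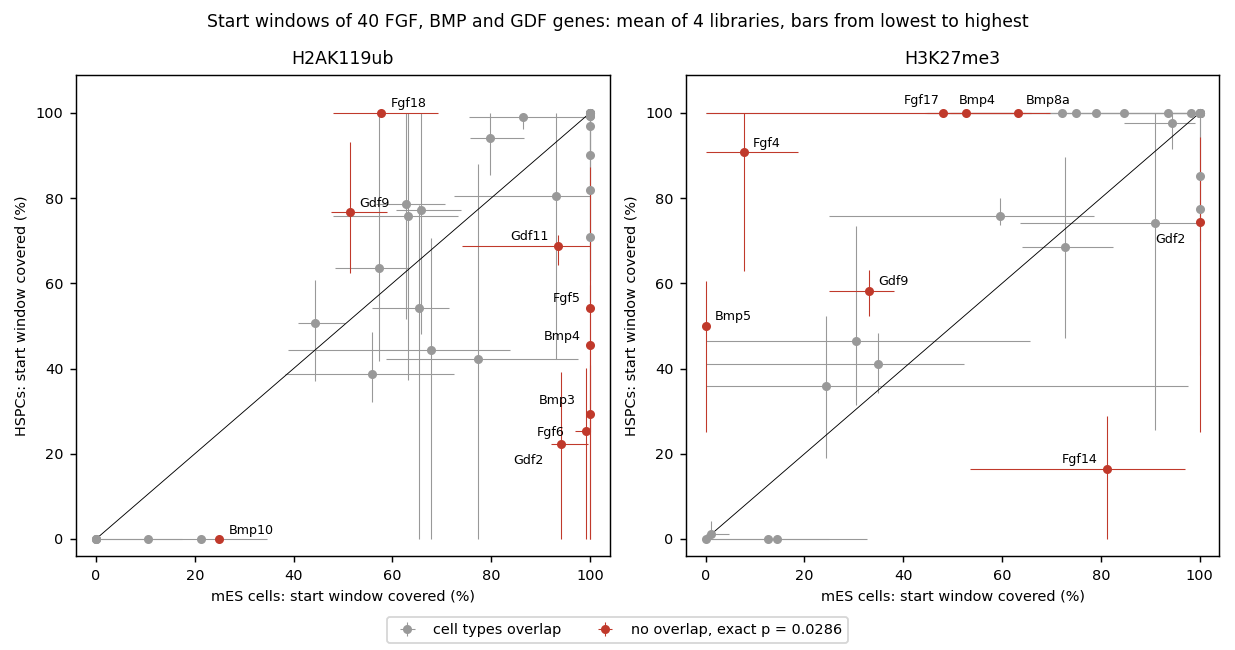
Mean percent of the start window covered in 4 mES libraries (horizontal) and 4 HSPC libraries (vertical) for each of the 40 mouse genes, WT and KO together, with bars from the lowest to the highest library and the line of equality, for H2AK119ub (left) and H3K27me3 (right). Red points are genes whose cell types do not overlap, 9 for H2AK119ub, of which 7 are lower in HSPCs, and 8 for H3K27me3, of which 6 are higher.

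H2AK119ub differed between the cell types mainly in the other direction. Bmp3, a BMP that opposes bone formation, was at 100% in all mES libraries, and at 40.3% and 0% in WT, against 40.9% and 36.6% in KO HSPCs. Fgf6, expressed in muscle, was at 97.0% to 100% in mES cells, and its HSPC values were 40.2% and 0% in WT, against 25.04% and 36.6% in KO. Gdf2 was at 92.2% to 99.7% in mES cells, against 0% to 39.2% in HSPCs. H3K27me3 at Bmp3 was complete in all 4 HSPC libraries, so this start carried H3K27me3 with less H2AK119ub. Bmp4 paired the opposite changes, with H2AK119ub at 100% in mES cells, against 25.04% to 59.5% in HSPCs. Fgf5, a marker of primed pluripotency, Gdf11, an axial patterning signal, and Bmp10, a cardiac ligand with a single minimal peak in mES cells, were also lower in every HSPC library.

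The 2 members with more H2AK119ub in HSPCs were Fgf18, a skeletal and lung FGF, and Gdf9. Fgf18 was covered over 55.6% and 69.2% in WT, against 48.0% and 58.1% in KO mES cells and over 100% in all 4 HSPC libraries. Gdf9 was covered over 47.6% to 58.8% in mES cells, against 62.3% to 93.2% in HSPCs, but at its protein-coding start the values were 0% in mES cells and 0% to 51.0% in HSPCs, and the cell types overlapped. Bmp8a, Fgf20, Fgf22 and Fgf4 were higher in HSPCs by at least 12.6 points with overlapping cell types, and Gdf10 was lower by 35.2 points with overlap. In all, 2 members reached the smallest p in the higher direction, against 16.2% of all genes, and 7 in the lower direction, against 8.93%. All 9 differed by at least 20 points, as did 14.3% and 8.36% of all genes. No member passed after adjustment over 17090 genes by the exact permutation test (smallest adjusted p 0.0937), and no gene did, under the same floor. With limma 8 members passed, Fgf18 and Gdf9 higher and Bmp3, Bmp4, Bmp10, Fgf6, Gdf2 and Gdf11 lower, against 17.1% and 9.21% of all genes, and Fgf5 did not (adjusted p = 0.0871). The member mean over start windows was lower in HSPCs by 10.3 points for H2AK119ub and higher by 6.73 points for H3K27me3. Over all genes H2AK119ub averaged 44.01% (WT) and 44.3% (KO) in mES cells, against 44.4% and 50.3% in HSPCs. H3K27me3 averaged 33.3% and 27.4% in the same order, against 38.6% and 37.9%, so all genes were higher in HSPCs too. The H3K27me3 member means also overlapped between cell types, with mES WT replicate 2 at 78.3% and HSPC KO replicate 1 at 75.96%.

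The receptors, antagonists and targets of the same pathways were examined as a list of 47 genes. For H3K27me3, 15 reached the smallest exact p in the higher direction in HSPCs and 3 in the lower, shares of 31.9% and 6.38% against 23.6% and 9.08% of all genes. Bmpr1a, a type I BMP receptor, was at 0% in all 4 mES libraries and 100% in all 4 HSPC libraries. Etv4 and Etv5, transcription factors induced by FGF signalling, had means of 7.88% and 0% in mES cells and 100% and 96.3% in HSPCs. Id1 and Id3, direct BMP targets, and Spry4, a feedback inhibitor of FGF signalling, had mES means of 54.5%, 60.9% and 58.3% and were at 100% in HSPCs. Klb, a co-receptor for some endocrine FGFs, had the reverse order, with 25.6% to 51.1% in mES cells and 0% in HSPCs. For H2AK119ub, 7 pathway genes (14.9%) were higher and 6 (12.8%) lower in HSPCs, against 16.2% and 8.93% of all genes, and Fgfr1, the main FGF receptor of mES cells, went from 74.8% to 11.7% on average. None of the 47 passed the exact test after adjustment, under the same floor, and by limma 21 passed for H3K27me3 and 9 for H2AK119ub. Of the 21, 16 were higher in HSPCs and 5 lower, where limma passed 33.5% and 12.5% of all genes. Of the 9, 5 were higher and 4 lower, where it passed 17.1% and 9.21%.

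Domain length gave a view of how far the mark spread from each start. H3K27me3 domains of at least 10 kb held the starts of 14 to 16 members in the mES libraries and 22 or 23 in the HSPC libraries. For H2AK119ub the numbers were 12 to 15 in mES cells, against 7 to 12 in HSPCs, with the lowest in WT HSPC replicate 2. Domains of this length were not counted over all genes, so neither shift can be called particular to the members. The Fgf8 domain was among the most even, at 16.8 to 21.1 kb for H3K27me3 in mES cells and up to 22.8 kb in HSPCs. The Bmp4 domain was 6.61 and 6.57 kb in WT mES cells and 24.4 to 28.3 kb in HSPCs. In KO mES cells no domain held the Bmp4 start. Fgf9, needed for testis and lung development, had 12.7 to 13.3 kb in mES cells and 20.3 to 20.99 kb in HSPCs.

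Tet2 genotype was compared next within each cell type and mark. A member was counted when both KO libraries lay above, or both below, the 2 WT libraries. With 2 against 2 the two-sided exact permutation test cannot go below p = 0.333, so no such difference could pass a threshold of 0.05, and the counts are read against the share of all genes.

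In mES cells H2AK119ub differed little at these genes. The member mean was 74.5% ± 0.247 (SD, n = 2) in WT and 74.0% ± 1.25 (SD, n = 2) in KO, a difference of -0.499 points with overlapping groups, against 0.264 points over all genes. Gdf10, also called BMP3B and active in bone and brain, was covered over 66.9% and 58.8% in WT, against 97.7% and 86.4% in KO. Gdf3, a TGFβ family ligand of pluripotent cells, was covered over 72.6% and 71.0% in WT, against 38.3% and 41.8% in KO. These were the only members with a difference of at least 20 points and no overlap, 1 higher against 4.29% of all genes and 1 lower against 3.97%. The domain at the Gdf10 start was 4.32 and 3.76 kb in WT and 23.7 and 14.3 kb in KO. With smaller differences counted, 6 of 40 members were higher in KO, against 10.6% of all genes, and 2 were lower, against 9.25%. Bmp8a was higher by 18.7 points, Fgf14 by 11.4, Bmp1 by 8.32, Gdf5 by 7.47 and Fgf20 by 7.25, and Fgf1 was lower by 11.8. At the most covered protein-coding start Bmp8a and Fgf14 overlapped and the other 6 calls held. The Gdf5 groups missed each other narrowly, with the higher WT library at 58.87% and the lower KO library at 58.92%.

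H3K27me3 was called over less of these starts in KO mES cells. KO replicate 2 stood apart, with 148 Mb of the autosomes under peaks against 187 to 230 Mb in the other 3 libraries. The member mean was 75.5% ± 3.96 (SD, n = 2) in WT and 65.7% ± 3.13 (SD, n = 2) in KO, a difference of -9.77 points without overlap, against -5.94 points over all genes. Counted one by one, 8 members were lower in both KO libraries, against 16.4% of all genes, and 0 were higher, against 1.96%. Of the 8, 6 differed by at least 20 points (12.2% of all genes lower, 1.08% higher). Fgf18 was covered over 100% in both WT libraries and 66.1% and 49.6% in KO. Fgf22, a presynaptic organiser, was covered over 65.7% and 31.3% in WT, against 25.04% and 0% in KO. Gdf11 was at 100% in both WT libraries and 69.8% and 68.8% in KO. These 3 genes lie on chromosomes 10 (Fgf22 and Gdf11) and 11 (Fgf18).

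Fgf23, the phosphate hormone of bone, was covered by H3K27me3 over 74.0% and 100% in WT, against 44.3% and 69.8% in KO mES cells. Gdf3 had 25.04% and 32.7% in WT and 0% in both KO libraries. Bmp10 had 25.04% in both WT libraries and 0% in both KO libraries, the loss of 1 minimal peak. Bmp4 was lower by 13.6 points and Fgf4 by 15.6 points. The 3 genes Fgf23, Gdf3 and Bmp10 lie on chromosome 6 beyond 81 Mb, where 21.4% of the genes were lower in KO for H3K27me3 and 23.2% for H2AK119ub, against 16.2% and 8.66% on the other autosomal sequence. The part of this stretch in the member counts was not tested, and without members on chromosomes 6 and 13 the H3K27me3 count was 5. Without KO replicate 2 the difference of the member mean was -7.56 points. Limma gave an adjusted p at most 0.05 for 2 of the 8, Bmp10 and Gdf11. Bmp8b was decided by 1 library, since its H3K27me3 was at 0% in KO replicate 1 and at 100% in the other 7 mouse H3K27me3 libraries.

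**Figure D4:**
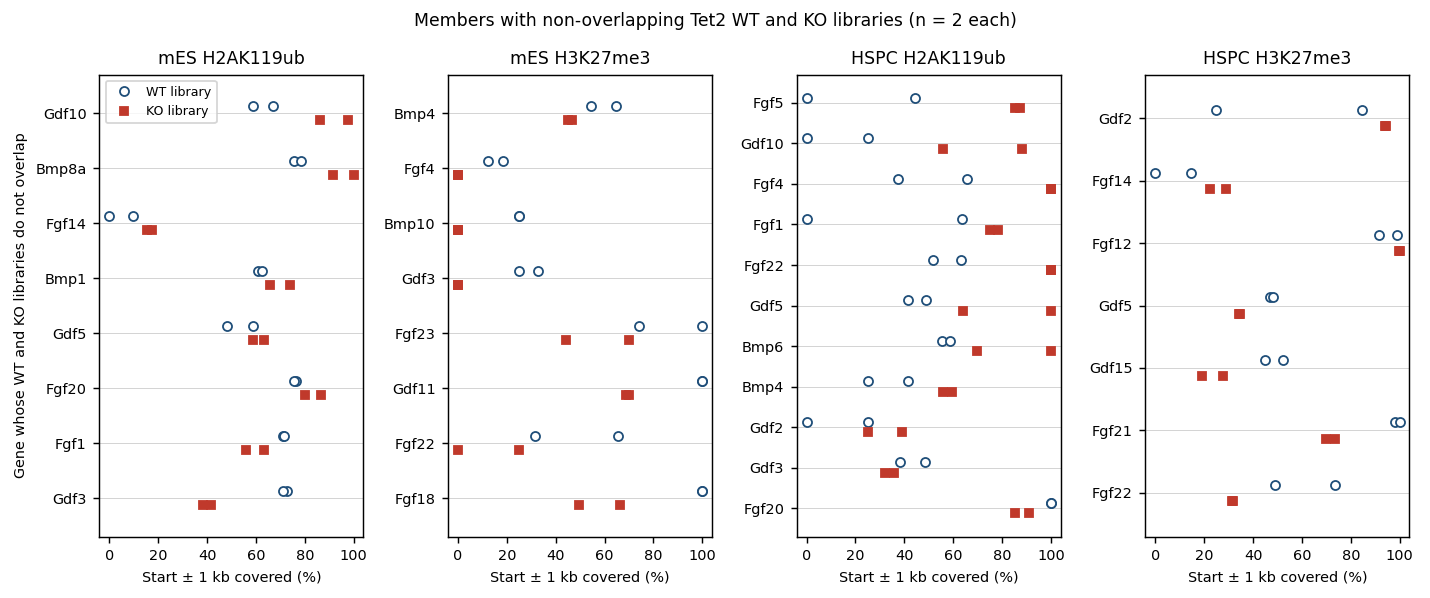
Percent of the start window covered in each WT library (open circles) and KO library (filled squares) for the members whose Tet2 WT and KO libraries do not overlap, n = 2 libraries each, in 4 panels by cell type and mark. All 8 genes of the mES H3K27me3 panel are lower in KO, and 9 of the 11 in the HSPC H2AK119ub panel are higher.

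In HSPCs H2AK119ub was called over more of these starts in KO. The member mean was 58.6% ± 8.62 (SD, n = 2) in WT and 69.4% ± 1.33 (SD, n = 2) in KO, a difference of 10.8 points with no overlap, against 5.85 points over all genes. Fgf5 was covered over 44.4% and 0% in WT, against 87.3% and 85.4% in KO. Gdf10 was covered over 25.04% and 0% in WT, against 88.1% and 55.8% in KO. Fgf4 was covered over 37.4% and 65.8% in WT and 100% in both KO libraries, although at its most covered protein-coding start it read 100% and 81.6% in WT and the groups overlapped. At the RefSeq windows printed above, Fgf5 read 94.3% and 0% in WT and 100% in both KO libraries, and Gdf10 read 0% in both WT libraries and 100% and 55.3% in KO, while H3K27me3 was at 100% at both windows in all 4 libraries.

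Fgf1, which binds all FGF receptors, had H2AK119ub coverage of 63.6% and 0% in WT HSPCs, against 74.9% and 78.3% in KO. Fgf22 was covered over 63.1% and 51.6% in WT and 100% in both KO libraries. Gdf5, a joint-forming ligand, was covered over 41.7% and 48.7% in WT, against 64.2% and 100% in KO. Bmp6, which drives hepcidin in iron balance, was higher by 27.7 points and Bmp4 by 24.4 points. Altogether 9 members were higher in KO, against 18.4% of all genes, and 2 were lower, Fgf20 by 11.8 points and Gdf3 by 9.30 points, against 5.32%. Of the 9, 8 differed by at least 20 points, against 11.8% of all genes, and 0 of the lower members did, against 2.33%. Gdf2 counted among the 9 only narrowly, with the higher WT library at 25.04% and the lower KO library at 25.14%. No member passed limma at an adjusted p of 0.05.

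WT HSPC replicate 2, the library with the fewest marked members, bears on the size of these values. It read 0% for H2AK119ub at Fgf5, Gdf10 and Fgf1, where WT replicate 1 read 44.4%, 25.04% and 63.6%. Without it, the difference of the member mean was 4.69 points. Without WT replicate 1 the difference was 16.9 points. When the lists of this comparison were cut to an equal number of peaks, 9 members were higher and 2 lower.

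H3K27me3 differed little with genotype in HSPCs. The member mean was 77.1% ± 1.30 (SD, n = 2) in WT and 77.5% ± 2.21 (SD, n = 2) in KO, a difference of 0.384 points with overlapping groups, against -0.658 points over all genes. Gdf2 was covered over 84.5% and 25.04% in WT, against 94.4% and 93.8% in KO. Its domain was 3.44 and 0 kb in WT and 31.7 and 31.5 kb in KO. The KO domain was the one that also held the start of its neighbour Gdf10, where the domain was already 23.3 and 28.4 kb in WT. Fgf21 was covered over 97.9% and 100% in WT, against 69.9% and 73.4% in KO. Fgf22 was covered over 48.9% and 73.5% in WT, against 31.4% and 31.6% in KO. Gdf15, a stress-induced circulating cytokine, was covered over 52.4% and 44.7% in WT, against 19.0% and 27.6% in KO. In total 3 members were higher in KO (Fgf12 and Fgf14 besides Gdf2, Fgf12 not at its most covered protein-coding start and Fgf14 not with lists of equal length), against 7.66% of all genes, and 4 were lower (with Gdf5), against 9.27%. By at least 20 points, 1 was higher, against 3.63%, and 3 lower, against 4.51%. Limma passed Gdf5 alone at an adjusted p of 0.05, and its values were 47.1% and 48.3% in WT, against 34.7% and 34.2% in KO.

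At Fgf22 and Gdf5, H2AK119ub was higher and H3K27me3 lower in both KO HSPC libraries. In KO mES cells the Fgf22 H3K27me3 was also lower, while H2AK119ub overlapped between genotypes at 70.6% and 57.7% in WT, against 65.7% and 56.7% in KO. Among the other genes with assigned roles, Fgf2, the basic FGF, had H3K27me3 at 100% in all 8 libraries, and its H2AK119ub ran from 72.5% to 100% in mES cells and from 42.3% to 100% in HSPCs with overlapping genotypes. Gdf15 had H2AK119ub at 100% in all 8 libraries, while its mES H3K27me3 was at 97.6% in WT replicate 2 and 0% in the other 3. Bmp2, a bone and heart ligand, had H2AK119ub at 37.2% to 60.7% in all 8 libraries and H3K27me3 at 100% in 7 of 8. Fgf10, a lung and limb bud signal, was more informative at the most covered start of its protein-coding transcripts, where H3K27me3 was at 59.6% and 40.6% in WT and 100% in both KO mES libraries and at 100% in all HSPC libraries.

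The pathway list gave counts of its own in the Tet2 comparisons. In mES cells, 6 of 47 genes were higher and 12 lower in KO for H2AK119ub, shares of 12.8% and 25.5% against 10.6% and 9.25% of all genes. For H3K27me3, 0 were higher and 9 lower, shares of 0% and 19.1% against 1.96% and 16.4%. Chrd, the BMP antagonist chordin, had H2AK119ub at 100% in both WT mES libraries, against 71.0% and 70.6% in KO (limma adjusted p = 0.00673). Etv5 went from 61.9% and 58.3% to 25.04% in both KO libraries (limma adjusted p = 0.0461). Acvr2b, an activin receptor, had H3K27me3 at 25.04% and 26.9% in WT and 0% in KO (limma adjusted p = 0.00568). In HSPCs, 16 genes (34.0%) were higher and 0 lower for H2AK119ub, against 18.4% and 5.32% of all genes, led by the BMP antagonist Grem1 at 11.54% and 0% in WT, against 85.0% and 80.8% in KO (limma adjusted p = 0.103). For H3K27me3 in HSPCs, 3 (6.38%) were higher and 8 (17.0%) lower, against 7.66% and 9.27%, and Acvr2a was at 100% in both WT libraries and 25.04% and 45.9% in KO (limma adjusted p = 0.264).

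Counted over whole gene spans instead of starts, more genes separated in every comparison, members and background alike. In mES cells 7 members were higher in KO for H2AK119ub, against 15.2% of all genes, and 9 lower, against 16.0%. For H3K27me3 in mES cells 4 were higher, against 5.53%, and 13 lower, against 22.1%. In HSPCs 11 were higher for H2AK119ub, against 17.9%, and 1 lower, against 9.89%, while for H3K27me3 7 were higher, against 12.4%, and 11 lower, against 19.4%. In K562 cells 23 members were higher after siMBD6, against 35.4%, and 1 lower, against 1.31%.

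In K562 cells H2AK119ub was sparse over these genes. No H2AK119ub peak touched 12 members in any of the 4 libraries, namely BMP2, BMP3, BMP4, BMP5, BMP10, FGF2, FGF7, FGF9, FGF10, FGF12, FGF14 and FGF20, which is 30% of the members against 48.0% of all genes. FGF17 was the only member at 100% in all 4. GDF2 was covered over 92.7% and 100% in siControl and 100% in both siMBD6 libraries, FGF22 over 69.9% and 100% against 70.5% and 70.9%, BMP7 over 44.6% and 66.4% against 56.1% and 57.9%, and GDF1 over 59.9% and 38.7% against 58.5% and 55.2%. Of the 13 members at 0% in both siControl libraries, 6 have mouse namesakes with H2AK119ub of at least 50% in WT mES cells. These were BMP3, BMP4, FGF2, FGF9, FGF20 and GDF3. This count was not made over all genes, whose coverage averaged 16.1% in siControl and 44.01% in WT mES cells. Species and list lengths also differed.

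**Figure D5:**
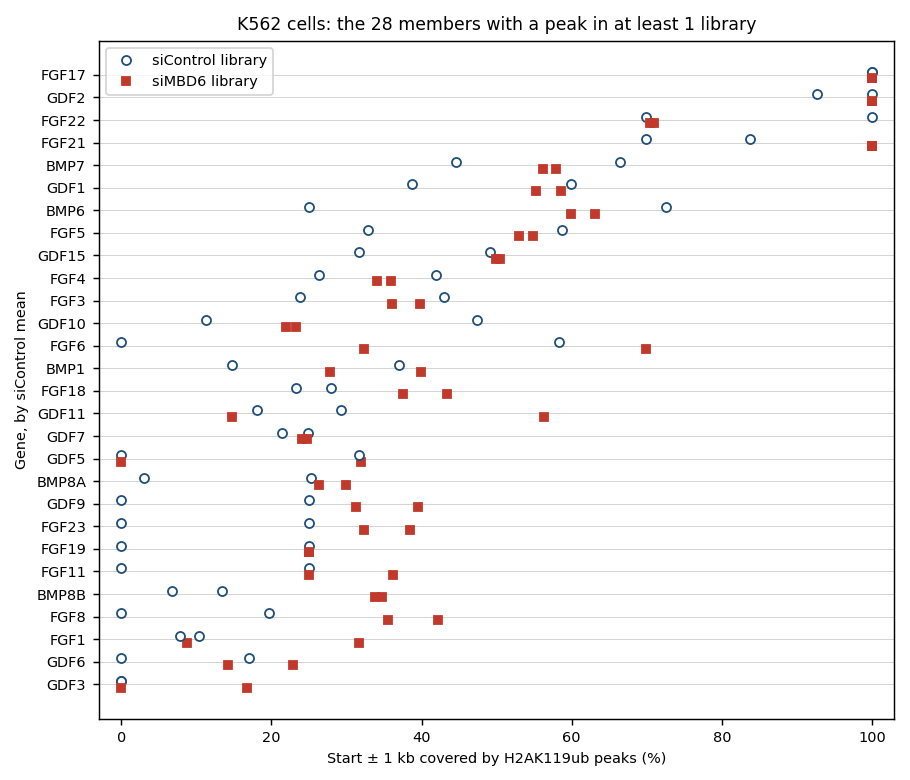
Percent of the start window under H2AK119ub peaks in each siControl library (open circles) and siMBD6 library (filled squares) for the 28 members with a peak in at least 1 K562 library, ordered by the siControl mean. FGF17 is at 100% in all 4 libraries, and FGF8, BMP8B, FGF23 and GDF9 have both siMBD6 libraries above both siControl libraries.

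Depletion of MBD6 went with more H2AK119ub at these starts. The member mean was 23.5% ± 4.39 (SD, n = 2) in siControl and 30.5% ± 1.14 (SD, n = 2) in siMBD6, a difference of 7.05 points with no overlap, against 4.76 points over all genes. FGF8 had 0% and 19.6% in siControl, against 42.2% and 35.5% in siMBD6. BMP8B had 13.4% and 6.75%, against 34.7% and 33.7%. FGF21 had 83.8% and 69.9% in siControl, against 100% in both siMBD6 libraries, in a window that also holds the start of FUT1. GDF9 had 25.04% and 0% in siControl, against 31.3% and 39.6%, and FGF23 over 0% and 25.04% against 32.3% and 38.5%.

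Together with FGF18, BMP8A and GDF15, which were higher by 14.8, 13.9 and 9.75 points, 8 members were higher in both siMBD6 libraries, against 13.7% of all genes, and 0 were lower, against 2.27%. By at least 20 points, 5 were higher, against 8.86%, and 0 lower, against 0.838%. The siMBD6 lists were also longer, with 107166 and 110860 peaks against 91721 and 91776, and with lists cut to the same length 7 members were higher, BMP8B then overlapping with a difference of 11.6 points. At the most covered protein-coding start GDF15 overlapped. No member passed limma. Without the first siControl library the difference of the member mean was 3.94 points, and without the second it was 10.2 points. Members that did not separate included FGF4, at 26.3% and 42.0% in siControl and 34.1% and 35.9% in siMBD6, and FGF19, the human counterpart of Fgf15, at 0% and 25.04% against 25.04% in both. FGF5 was covered over 32.8% and 58.7% against 53.0% and 54.9%, BMP6 over 25.04% and 72.6% against 63.1% and 59.97%, and GDF11 over 18.04% and 29.3% against 14.7% and 56.3%. GDF3 had 1 siMBD6 library at 16.7% and the other 3 libraries at 0%, and GDF5 read 0% and 31.6% against 31.9% and 0%. Of the 47 pathway genes, 10 (21.3%) were higher and 1 (2.13%) lower, against 13.7% and 2.27% of all genes, and FST, the activin antagonist follistatin, was at 0% in both siControl and 42.6% in both siMBD6 libraries (limma adjusted p = 0.0530).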

How the data were processed

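CUT&Tag peak lists were used as deposited for 20 libraries. The authors' reads had been trimmed (Trimmomatic 0.39), mapped by Bowtie2 2.4.1 to mm10 or hg38 and to a Drosophila spike-in, stripped of duplicates (Picard) and passed to MACS2 for broad peaks, library by library. HOMER 4.9 is also named, without a role. The deposited files hold peak positions (chromosome, start, end) with no score, count or signal, so depth and counting error are unknown, a call is all or none, and a longer list may reflect more reads. The spike-in does not scale positions.

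Groups came from the sample labels. Overlapping peaks were merged, and the covered percent was taken for 1 kb on each side of the outermost GENCODE start (M21 for mouse, 44 for human) and for the gene span, for all autosomal protein-coding genes. No list ran past a chromosome end of these builds. Coverage was computed with Python 3.11.15, numpy 2.4.6 and pandas 2.3.3 and checked with bedtools 2.31.1. Cell types were compared gene by gene with a two-sided exact permutation test over 70 assignments (scipy 1.17.1), Benjamini-Hochberg adjusted over all genes covered in at least 1 library. Limma 3.58.1 in R 4.3.3 on the covered percent was an alternative and was tested on simulated data. Adjusted p-values named limma come from it. Genotypes and siRNAs, with 2 libraries each, were compared by whether the libraries overlapped. Named genes were members that did not overlap and differed by at least 20 points (at most 6 each way), the 6 largest cell type differences each way, a list chosen for known roles, and the 6 highest K562 members. Sequences followed H3K27me3 rank and genotype difference, passing over members without a RefSeq entry (Bmp1 and Bmp2). The members and all lists were chosen with earlier results of these data known. Alternatives were a 2 kb window, peaks of at least 1 kb, gene spans, the most covered protein-coding start (taken library by library), equal list lengths, joined peaks, no members on chromosomes 6 and 13, a 20-point minimum, each library left out and a replicate block.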

Additional observations from a re-analysis of the deposited data

Results flagged for a closer look

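Fgf1 and Fgf20 had H2AK119ub differences between Tet2 genotypes that ran in opposite directions in the 2 cell types, with no overlap between WT and KO libraries in either. At Fgf1 the KO minus WT difference was -11.8 points in mES cells, from 71.1% and 71.5% to 55.8% and 63.1%, and 44.8 points in HSPCs, from 63.6% and 0% to 74.9% and 78.3%. The 0% belongs to WT HSPC replicate 2, the library that stood apart. At its most covered protein-coding start both directions held with higher WT values. There mES cells went from 96.7% and 100% to 90.3% and 95.2%, and HSPCs from 72.9% and 47.5% to 93.3% and 87.5%. At Fgf20, whose window also holds the start of Micu3, it was 7.25 points in mES cells, from 76.5% and 75.7% to 86.7% and 80.01%, and -11.8 points in HSPCs, from 100% in both to 85.4% and 91.0%. The difference between the cell types in these effects was not tested.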

How the results depend on the processing

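Of 125 alternative values other than leaving out a library, 91 stayed with the value given in the report and 34 moved, and none changed direction where a direction was called. The cause of the moves was not tested. For the member mean in mES H2AK119ub (-0.499 points), a 2 kb window gave -2.18, peaks of at least 1 kb -2.53, gene spans -2.90 and no members on chromosomes 6 and 13 0.953. Gene spans gave 4.41 in place of 10.8 for HSPC H2AK119ub. Counts of members without overlap moved as follows. For mES H2AK119ub (8), spans gave 16, the 20-point minimum 2 and limma 0. For mES H3K27me3 (8), peaks of at least 1 kb gave 4, spans 17, no chromosomes 6 and 13 5 and limma 2. For HSPC H2AK119ub (11), limma gave 0. For HSPC H3K27me3 (7), a 2 kb window gave 11, spans 18, the 20-point minimum 4 and limma 1. For K562 (8), a 2 kb window gave 16, peaks of at least 1 kb 4, spans 24, the 20-point minimum 5 and limma 0. In the cell type test (0 after adjustment), permuting within genotype put 10 members for H2AK119ub and 8 for H3K27me3 at its smallest p, and limma passed 8 and 7. Both marks in WT HSPCs (26) became 17 under the 50% rule.

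Same-numbered replicates did not deviate together (correlations -0.133 to 0.0307). With a replicate block, counting members whose same-numbered pairs changed the same way, the counts were 12, 10, 13, 9 and 10 in the order mES H2AK119ub, mES H3K27me3, HSPC H2AK119ub, HSPC H3K27me3 and K562, and with numbers crossed in mES H3K27me3 the count was 11. Limma with the block gave 0, 3, 0, 0 and 0, and in the cell type comparisons 8 and 6.

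Leaving out 1 library at a time moved 10 of 72 values. The member mean ranged from -1.38 to 0.386 (mES H2AK119ub), -12.6 to -6.96 (mES H3K27me3), 4.69 to 16.9 (HSPC H2AK119ub), -1.18 to 1.95 (HSPC H3K27me3), 3.94 to 10.2 (K562), -12.4 to -6.47 (cell types, H2AK119ub) and 4.37 to 9.30 (cell types, H3K27me3). Counts without overlap ranged from 11 to 16, 12 to 17, 14 to 23, 9 to 13 and 12 to 22, since 1 library against 2 overlaps less easily, and 0 to 0 in both cell type tests.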
